A study of Mus musculus with 2 samples.

Results

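The genes described here are the ligands and receptors of the tumour necrosis factor (TNF) superfamily in mouse adipose tissue. They were taken as every probe set whose only annotated symbol is Tnf, Fas or a Tnfsf or Tnfrsf number, which gave 48 of 45101 probe sets and 29 of 18193 genes. Of these genes 8 encode ligands (14 probe sets) and 20 encode receptors (32 probe sets). The remaining gene, Tnfsf13os, is a long non-coding RNA that is neither, and its 2 probe sets were below background on both arrays. Tnfsf12, Tnfsf13, Tnfsf15, Tnfsf18 and Tnfrsf26 had no probe set that met the rule and were not analysed here.

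The tissue came from C57BL/6 mice on the high fat diet HFD32 and, as a control, from C57BL/6 mice on the normal diet CE-2. Both diets ran from 6 to 18 weeks of age, so feeding lasted 12 weeks. Each diet was measured on 1 Affymetrix array of total RNA pooled from 3 animals, and the sources used here give neither the fat depot nor the sex. With 1 array per diet there was no replicate check and no test between diets, so each difference compares 2 pools of RNA.

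Members of this superfamily are mostly membrane proteins. The ligands assemble as trimers and are often cut from the cell surface, and the receptors bind them through cysteine-rich repeats outside the cell. Receptors with a death domain can start caspase-driven cell death, while others recruit TRAF adaptors and switch on NF-kappaB. In fat, TNF is best known as a product of macrophages that lowers insulin signalling in adipocytes.

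Values are log2 signals, and a difference is the high fat diet value minus the normal diet value, so that 1 is a 2-fold ratio. A probe set was called near background where it lay below the 95th percentile of 81 probe sets of olfactory, vomeronasal and taste receptor genes, 4.96 on the high fat diet array and 4.94 on the normal diet array. A gene was represented by its brightest probe set, by the mean over the 2 arrays, and was compared by counts if that mean reached a floor of 5.44, the median signal once control probe sets were left out. The only spread available is that between probe sets of the same gene, whose differences had an SD of 0.27 over 5131 genes above the floor. Where a gene had exactly 2 of them (3105 genes), their differences lay up to 0.70 apart at the 95th percentile. Probe sets of a gene are read on the same RNA, so neither value holds variation between animals or pools. Because RNA came from whole tissue, fewer cells of a type and less RNA per cell cannot be told apart.

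Among the 8 ligands, 0 were at least 2-fold higher or lower, where 2.63% and 3.06% of all 18193 genes were, and only Tnf, Tnfsf10 and Tnfsf13b were above background. Among the receptors, 17 of 20 had a positive difference, against 53.0% of all genes, and 3 had a negative one. The highest difference was that of Tnfrsf12a, the receptor of the cytokine TWEAK, which was 3.06-fold higher. Tnfrsf21, Tnfrsf22 and Tnfrsf1b followed among the receptors above the floor, with ratios of 1.93, 1.89 and 1.71. Tnfrsf1a, the main death-domain receptor of TNF, differed by 0.09.

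Above the floor lay 3 ligands and 11 receptors. The median difference was -0.31 for the ligands and 0.42 for the receptors, a gap of -0.72, while the median over all 11778 genes above the floor was 0 with quartiles of -0.23 and 0.23. The ligand median rests on 3 genes and turned to 0.14 over all 8 ligand genes without the floor, where the gap to the receptors narrowed to -0.28. Of the 14 genes, 1 was at least 2-fold higher, where 3.28% of all genes above the floor were, and 0 were at least 2-fold lower, where 3.29% were. At 1.5-fold, 5 of the 11 receptors were higher and 0 lower, against 8.20% and 8.52% of all genes above the floor. A positive difference was seen in 1 of 3 ligands and 9 of 11 receptors, and in 49.9% of all genes above the floor. Dim genes leaned upward in general, with a positive difference in 58.9% of the genes below the floor.

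**Figure D1:**
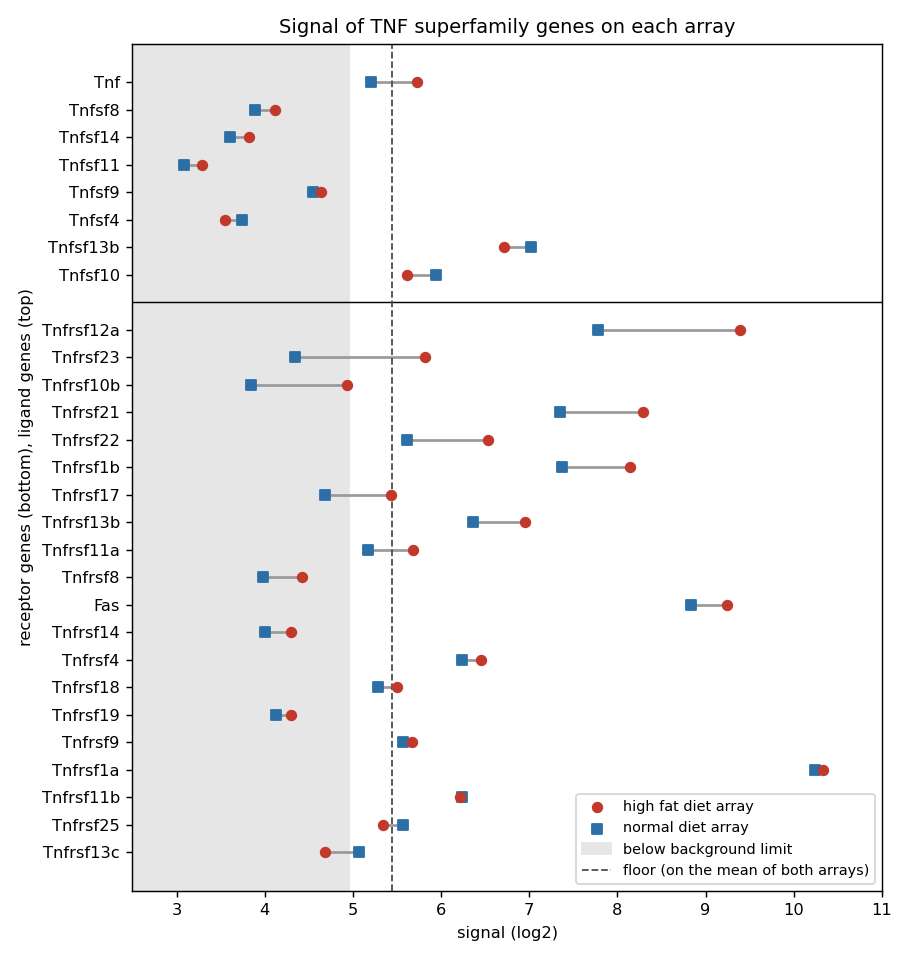
Log2 signal of the brightest probe set of each ligand gene and each receptor gene on the high fat diet array (circles) and the normal diet array (squares), with the background limit shaded and the floor of 5.44 dashed. Of the 8 ligands 5 lie in the shaded range on both arrays, and 17 of 20 receptors have the circle to the right of the square.

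The sequences just before the gene start are shown for the 3 receptors that had 2 probe sets, each higher and above background on both arrays, and for Tnf, the ligand of Tnfrsf1b. Each is the 250 bases upstream of the annotated start, 5′ to 3′, from RefSeq on GRCm38.p6, in which 23 of the 28 ligand and receptor genes had an entry. Capitals mark a match to 1 of 3 motifs searched on both strands, which were TATAAA, the AP-1 motif TGANTCA and the NF-kappaB consensus.
Tnfrsf12a, promoter, chr17:23677450-23677699, minus strand: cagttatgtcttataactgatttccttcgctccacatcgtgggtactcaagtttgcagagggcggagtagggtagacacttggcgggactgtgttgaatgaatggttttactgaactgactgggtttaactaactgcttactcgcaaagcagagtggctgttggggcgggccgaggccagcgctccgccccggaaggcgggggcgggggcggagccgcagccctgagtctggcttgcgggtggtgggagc
Tnfrsf21, promoter, chr17:43016305-43016554, plus strand: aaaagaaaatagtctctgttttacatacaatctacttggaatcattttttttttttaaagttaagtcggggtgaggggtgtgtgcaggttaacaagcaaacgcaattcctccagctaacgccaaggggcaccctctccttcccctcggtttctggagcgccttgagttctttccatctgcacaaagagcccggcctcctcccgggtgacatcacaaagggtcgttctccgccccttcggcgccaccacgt
Tnfrsf1b, promoter, chr4:145246871-145247120, minus strand: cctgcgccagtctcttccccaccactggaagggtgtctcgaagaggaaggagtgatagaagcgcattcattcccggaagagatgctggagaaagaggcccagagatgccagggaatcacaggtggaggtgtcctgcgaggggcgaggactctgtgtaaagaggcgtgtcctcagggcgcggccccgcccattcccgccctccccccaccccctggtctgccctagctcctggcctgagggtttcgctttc
Tnf, promoter, chr17:35202008-35202257, minus strand: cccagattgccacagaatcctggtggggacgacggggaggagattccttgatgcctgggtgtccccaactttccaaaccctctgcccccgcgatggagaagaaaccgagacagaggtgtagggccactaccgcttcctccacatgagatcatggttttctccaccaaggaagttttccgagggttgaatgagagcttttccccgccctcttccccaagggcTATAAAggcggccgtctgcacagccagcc

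The Tnf window held TATAAA at positions -29 to -24 from the start, and the 3 receptor windows held none of the motifs. Over the whole family the NF-kappaB consensus was found in 0 of 7 ligand windows and 3 of 20 receptor windows, and in 7.25% of all 32851 promoter windows of this length. TGANTCA was found in 2 ligand windows and 3 receptor windows, against 6.75% of all windows, and TATAAA in 2 ligand and 2 receptor windows, against 12.4%. Windows are fewer or more than genes because some genes have several starts and others no entry. A match is a string of letters and not a shown binding site.

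Tnf itself, the founding cytokine of the family, had a signal of 5.73 on the high fat diet array and 5.20 on the normal diet array. Its mean of 5.47 was only just above the floor of 5.44, and it has a single probe set here. The difference of 0.53, a ratio of 1.44, was below the 95th percentile of the gap between probe sets of the same gene. That gap is not an error of a difference between diets. A larger difference was seen in 9.45% of the genes above the floor.

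Tnfsf10 encodes TRAIL, a ligand that can trigger death of transformed cells. Its brightest probe set had 5.61 on the high fat diet array and 5.94 on the normal diet array, a difference of -0.32. The next probe set had -0.23 and the third, which was near background, had -0.09. All 3 probe sets pointed to a lower signal, by amounts near or under the SD between probe sets.

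Tnfsf13b encodes BAFF, a survival factor of B cells that macrophages and stromal cells make. It had 6.71 on the high fat diet array and 7.02 on the normal diet array, a difference of -0.31, on the only one of its 3 probe sets that was above background. The other 2 had -0.17 and 0.06.

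The remaining 5 ligands were near background on both arrays. They are Tnfsf4 (the OX40 ligand), Tnfsf8 (the CD30 ligand), Tnfsf9 (the CD137 ligand), Tnfsf11 (RANKL, which drives osteoclast formation) and Tnfsf14 (LIGHT). The lowest and highest of their signals were 3.29 and 4.63 with high fat feeding and 3.08 and 4.55 with normal feeding. The differences lay between -0.19 and 0.22 and are given without a ratio, since neither array measured these genes above background.

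Tnfrsf12a, also known as Fn14, is a small receptor induced by injury and growth factors. Its brightest probe set had 9.39 on the high fat diet array and 7.78 on the normal diet array, and its second had 9.34 with the high fat diet and 7.69 with the normal diet. The differences of 1.61 and 1.65 lay 0.04 apart, and 1.15% of the genes above the floor had a difference larger than that of the first. Its ligand TWEAK is encoded by Tnfsf12, which was not analysed here.

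Tnfrsf21, or death receptor 6, had 8.29 on the high fat diet array and 7.34 on the normal diet array. Its second probe set had 6.89 with the high fat diet and 6.11 with the normal diet. The differences of 0.95 and 0.78 had the same direction and lay 0.17 apart, within the SD between probe sets.

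The TNF receptors had unlike values, but the contrast between them was not tested. Tnfrsf1b, which lacks a death domain and signals through TRAF2, had 8.14 on the high fat diet array and 7.37 on the normal diet array, and its second probe set had 6.62 with the high fat diet and 5.88 with the normal diet. The differences of 0.77 and 0.73 lay 0.04 apart. Tnfrsf1a, which carries the death domain, had 10.33 with the high fat diet and 10.24 with the normal diet and has 1 probe set here. Its difference of 0.09 lay inside the quartiles of all genes above the floor. Fas, the death receptor of Fas ligand, had 9.25 on the high fat diet array and 8.83 on the normal diet array, a difference of 0.42.

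Tnfrsf22, Tnfrsf23 and Tnfrsf10b, which encode receptors of TRAIL, had positive differences. On the brightest probe sets Tnfrsf22 was above the floor, and Tnfrsf23 and Tnfrsf10b were below it. Tnfrsf22 and Tnfrsf23 encode decoy receptors of TRAIL in the mouse that lack a death domain, and they are neighbours on chromosome 7 with similar sequences, so that probes may be shared between them. The brightest Tnfrsf22 probe set had 6.53 on the high fat diet array and 5.61 on the normal diet array, a difference of 0.92. Its others had 1.08 and, near background, 0.43. Tnfrsf23 had 5.82 with the high fat diet and 4.35 with the normal diet, and since the normal diet signal was below background it was at least 1.84-fold higher. Tnfrsf10b, the death receptor of TRAIL, reached 4.94 on the high fat diet array and 3.85 on the normal diet array. Both its probe sets had a positive difference, 1.09 and 0.72, but all of its signals were near background and no ratio is given.

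Receptors of BAFF and its relative APRIL, which B and plasma cells use, went both ways. Tnfrsf13b, or TACI, had 6.95 on the high fat diet array and 6.36 on the normal diet array, a difference of 0.59. Tnfrsf17, or BCMA, had 5.43 with the high fat diet and 4.68 with the normal diet and was at least 1.40-fold higher, as its normal diet signal was near background. Tnfrsf13c, the BAFF receptor of mature B cells, had 4.68 with the high fat diet and 5.07 with the normal diet and was at least 1.08-fold lower. Each of the 3 has 1 probe set here. Beside them, the 5 B and plasma cell markers above the floor had a median of -0.35, with Ms4a1 at -1.13 and Sdc1, which other cells than plasma cells also express, at 1.12.

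The receptors of RANKL had values that depended on the probe set. Tnfrsf11a, or RANK, had 5.68 on the high fat diet array and 5.17 on the normal diet array, a difference of 0.51, with 0.98 on a probe set near background. Tnfrsf11b, the secreted decoy osteoprotegerin, had 6.22 with the high fat diet and 6.23 with the normal diet on its brightest probe set, a difference of -0.02. Its second probe set had 5.65 with the high fat diet and 4.94 with the normal diet, a difference of 0.71. The gap of 0.73 between them was above the 95th percentile of such gaps, which was taken over genes whose probe sets both reached the floor. The second Tnfrsf11b probe set, with a mean of 5.29, did not reach it. Its normal diet signal was only just above the background limit of 4.94. That percentile is therefore not a like comparison for this gap, and the direction for Tnfrsf11b was not settled.

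Costimulatory receptors of lymphocytes differed little. Tnfrsf4 (OX40) had 6.45 on the high fat diet array and 6.23 on the normal diet array. Tnfrsf18 (GITR), its neighbour on chromosome 4, had 5.50 with the high fat diet and 5.29 with the normal diet. Their differences were 0.22 and 0.21. Tnfrsf9 (CD137) had 5.67 with the high fat diet and 5.57 with the normal diet, a difference of 0.10, with 0.44 and 0.19 on probe sets near background. Tnfrsf25, or death receptor 3, had 5.34 with the high fat diet and 5.57 with the normal diet, a difference of -0.22. On the brightest probe sets these differences lay inside the quartiles of all genes above the floor.

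Near background on both arrays were Tnfrsf8 (CD30), Tnfrsf14 (the receptor of LIGHT), Tnfrsf19 (TROY) and Tnfrsf10b. The differences of the brightest probe sets of the first 3 were 0.44, 0.29 and 0.18, and the other probe sets of Tnfrsf19 had -0.02 and -0.06. A positive sign is common at this signal. Of the 4957 genes near background on both arrays, 60.7% had a positive difference. The size was less common for some of these receptors. The upper quartile of those 4957 differences was 0.24. On their brightest probe sets Tnfrsf8, Tnfrsf14 and Tnfrsf10b lay above it and Tnfrsf19 below it.

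**Figure D2:**
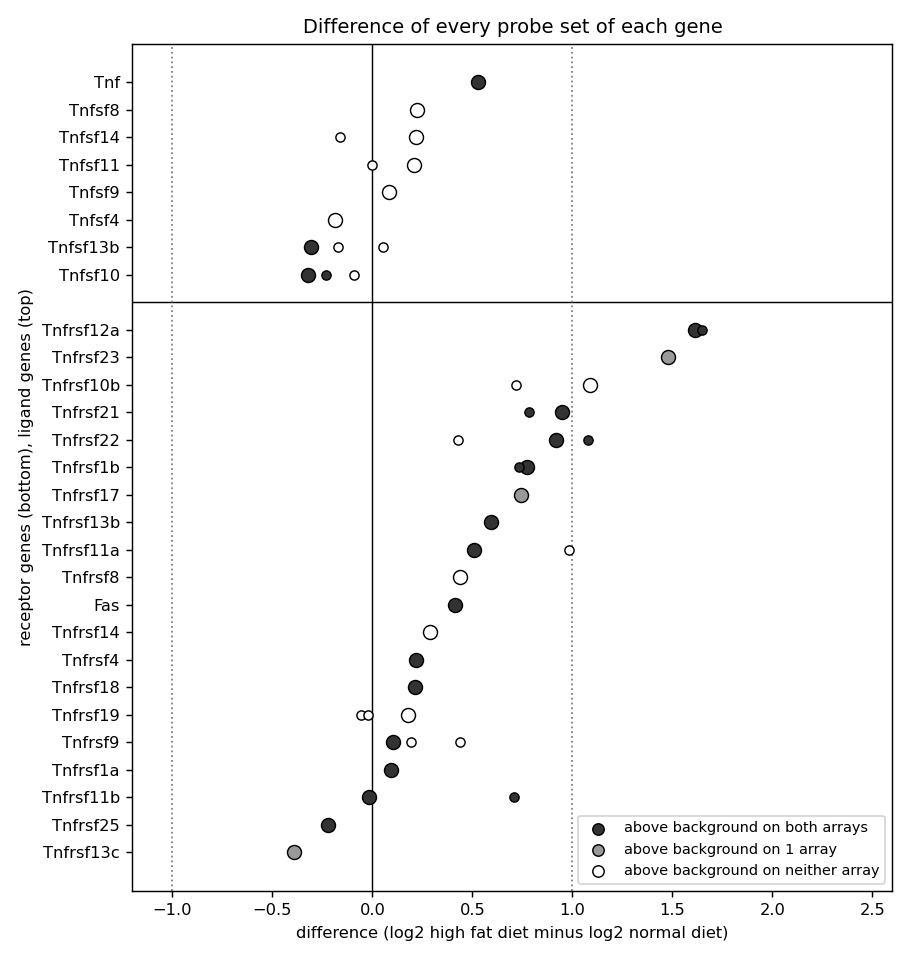
Difference (log2 high fat diet minus log2 normal diet) of all probe sets of each ligand gene and each receptor gene, with a larger point for the brightest one, shading for the number of arrays on which it was above background, and dotted lines at 2-fold. Tnfrsf12a, Tnfrsf21 and Tnfrsf1b have closely placed dark points to the right of 0, and the points of Tnfrsf11b lie 0.73 apart.

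The agreement between probe sets could be read in 13 genes. Of 4 ligands with several probe sets, 1 (Tnfsf10) was lower on each, a count for which no share over all genes is given. Of 9 receptors with several, 7 were higher on each, against 31.3% of all 9010 genes with several probe sets, the exceptions being Tnfrsf11b and Tnfrsf19. Counted by probe set, 6 of 14 ligand probe sets and 27 of 32 receptor probe sets had a positive difference, against 54.4% of all probe sets with 1 symbol. Probe sets of the same gene share their transcript and are not independent.

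Ligands were next set beside receptors, from a list that left out some receptors described above. Tnfrsf22 and Tnfrsf23 were not paired with Tnfsf10, nor Tnfrsf11b with Tnfsf11. The brightest probe sets of Tnfsf10 and Tnfrsf22, above background on both arrays, had differences of -0.32 and 0.92. Of 17 ligand and receptor pairs listed, which include Fasl with Fas, 12 had both genes measured. In 9 of these a gene was below background on at least 1 array, and the order of the 2 differences was not counted there. Among them, Tnfsf13b had -0.31 and its receptor Tnfrsf17 was at least 1.40-fold higher, so that bound sets their order. In the 3 remaining pairs both genes were above background on both arrays. Tnf had a larger difference than Tnfrsf1a (0.53 and 0.09), and a smaller one than Tnfrsf1b (0.53 and 0.77). Tnfsf13b had a smaller difference than Tnfrsf13b (-0.31 and 0.59). Of these pairs 2 share Tnf. Fasl was near background on both arrays, at 2.92 with the high fat diet and 2.88 with the normal diet.

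**Figure D3:**
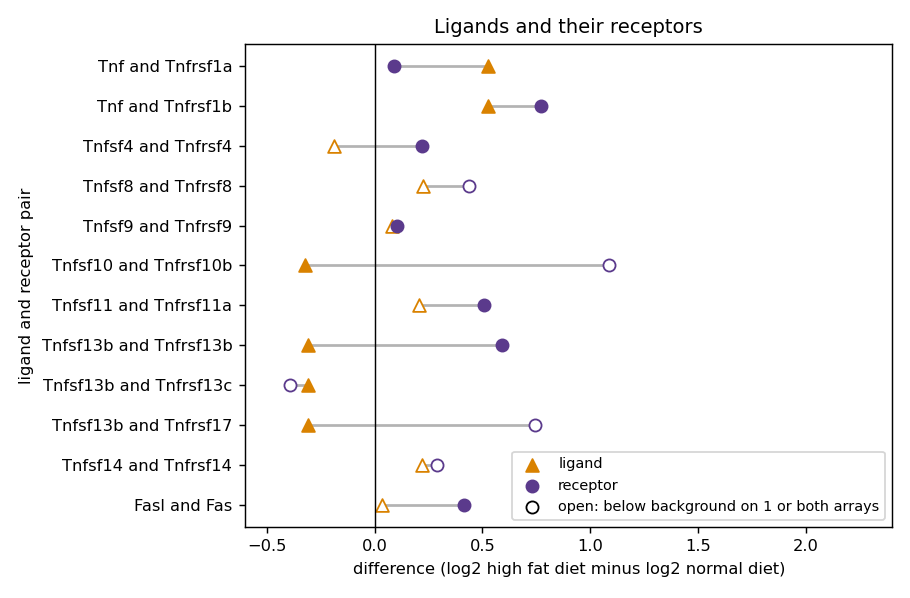
Difference (log2 high fat diet minus log2 normal diet) of the ligand (triangles) and the receptor (circles) in 12 pairs, with open symbols for genes below background on 1 or both arrays. Both symbols are filled in 3 pairs, and among these the circle lies to the right of the triangle in 2.

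Family members that carry other names were read in the same way. All 13 were measured and 5 were above the floor, with a median difference of 0.15. Of these 5, 4 were higher and 0 were at 2-fold. Over all genes above the floor 49.9% were higher, and 3.28% and 3.29% were past 2-fold up and down. Cd40, through which T cells activate macrophages and B cells, had 6.08 on the high fat diet array and 5.66 on the normal diet array. Ltbr, the lymphotoxin beta receptor, differed by 0.17, Relt by 0.15 and Eda, the ligand ectodysplasin, by 0.13, while Ltb, a lymphotoxin subunit of lymphocytes, had -0.46. Eda2r, a receptor of ectodysplasin, had 5.69 with the high fat diet and 4.61 with the normal diet and was at least 1.68-fold higher.

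Genes that carry the signal inside the cell differed little as a group. Of 30 listed, 24 were above the floor, with a median of 0.09, 16 of them higher, and 0 past 2-fold in either direction. Over all genes above the floor these shares were 49.9% higher, and 3.28% and 3.29% past 2-fold up and down. Ripk3, the kinase of necroptosis, differed by 0.95 and the adaptor Traf5 by 0.87, followed by the death-domain adaptor Fadd at 0.42. The lowest were Rbck1, a part of the linear ubiquitin ligase, at -0.36, Birc2, a ubiquitin ligase that restrains cell death, at -0.32, and Cflar, an inhibitor of caspase 8, at -0.31. Rel, an NF-kappaB subunit of immune cells, had 5.15 on the high fat diet array and 3.89 on the normal diet array and was at least 1.16-fold higher.

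Genes known to respond to TNF and NF-kappaB went both ways. The median over 20 genes above the floor was 0.35. Of these genes 15 had a positive difference, against 49.9% of all genes above the floor. Past 2-fold were 2 in each direction, against 3.28% higher and 3.29% lower of all genes above the floor. The monocyte attractant Ccl2 had 9.64 on the high fat diet array and 7.20 on the normal diet array, 5.41-fold higher. Tnfaip2 had 8.18 with the high fat diet and 6.98 with the normal diet, 2.30-fold higher, and Cxcl10 differed by 0.92. Ptgs2, the inducible cyclooxygenase, had 8.37 on the high fat diet array and 10.77 on the normal diet array, 5.30-fold lower. The protease Mmp9 had 6.03 with the high fat diet and 7.72 with the normal diet, 3.22-fold lower, and Ier3 differed by -0.66. The feedback inhibitors Nfkbia and Tnfaip3, named outside the rule, had -0.30 and 0.20.

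The 8 genes of ligand shedding were all above the floor, with a median of 0.03 and 4 higher, where 49.9% of all genes above the floor were. Adam17, the protease that releases TNF from the cell surface, had 8.78 on the high fat diet array and 8.09 on the normal diet array, a difference of 0.69. Its cofactors Rhbdf2 and Rhbdf1 differed by 0.25 and 0.22. Timp3, an inhibitor of Adam17, had 9.91 with the high fat diet and 10.36 with the normal diet, a difference of -0.45, while the convertase Furin had -0.23 and the intramembrane protease Sppl2a -0.10.

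**Figure D4:**
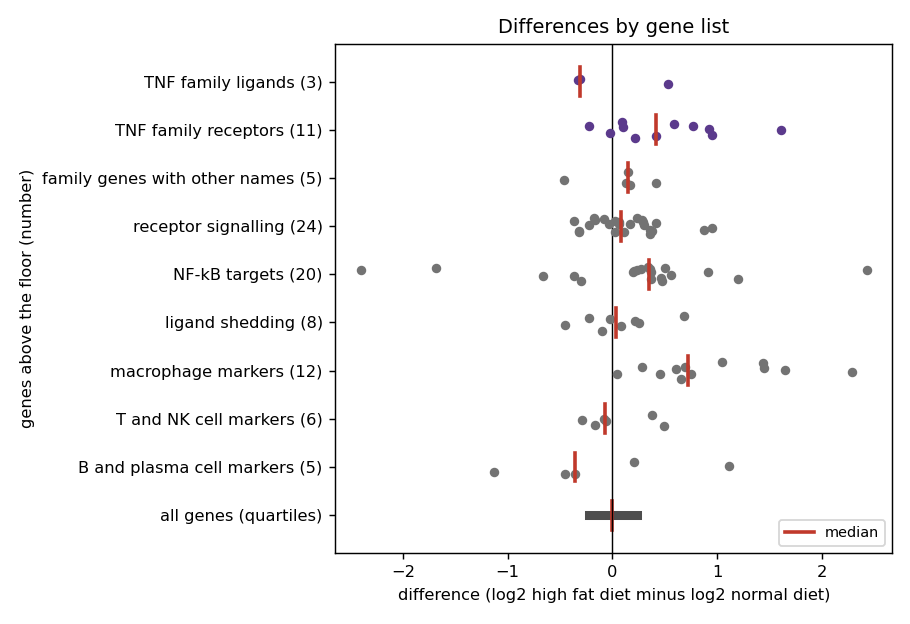
Difference (log2 high fat diet minus log2 normal diet) of each gene above the floor by list, with the number of genes in brackets, a red line for the median and, for all 11778 genes, a bar over the quartiles. The receptors (median 0.42) lie mostly to the right of 0, as do the macrophage markers (median 0.72), while the signalling genes have a median of 0.09.

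Markers of cell types were read on the same arrays. The label of adipose tissue was checked first, and all 8 measured adipocyte markers were above the floor, with a median difference of -0.04. All 12 macrophage markers were above the floor and had positive differences around a median of 0.72, and 5 were past 2-fold. Their linear signals summed to 31374 on the high fat diet array and 18224 on the normal diet array. None of these 12 was near background. For T and NK cells, the 6 markers above the floor had a median of -0.07 and 2 were higher. Over the 12 measured, signals summed to 810 with the high fat diet and 792 with the normal diet. Cd28, Ncr1 and Foxp3 were near background on both arrays. B and plasma cell markers above the floor had 2 of 5 higher. The 8 measured summed to 926 with the high fat diet and 856 with the normal diet, though 5 of the 8 were lower. Sdc1 was the brightest of them with the high fat diet, at 8.67, and had 7.55 with the normal diet. Blk was near background on both arrays. Fibroblast markers had a median of 0.09 over 8 genes and endothelial markers -0.61 over 8, of which 0 were higher. Dendritic cell markers had 0.22 over 4 genes, and the 7 measured summed to 659 with the high fat diet and 553 with the normal diet. Markers of neutrophils and mast cells had -0.10 over 6. The 8 measured summed to 1433 with the high fat diet and 817 with the normal diet. S100a8 was the brightest of them, at 9.79 with the high fat diet and 7.69 with the normal diet. The neutrophil genes went both ways, S100a8 4.30-fold higher and S100a9 at least 2.78-fold lower. Csf3r, above background on both arrays but below the floor, differed by 0.62, and Cxcr2, near background, by 0.22. The part of these cells in the receptor signals was not tested.

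Markers of tissues other than fat also differed between the pools. For genes below background on an array, the medians here were taken with the signal raised to the background limit and understate the difference. All 8 liver markers were past 2-fold lower with high fat feeding, with a median of -5.14, and all 6 pancreas markers were, with a median of -2.85. Of all genes above the floor 3.29% were. Skeletal muscle markers had -2.00, smooth muscle markers -1.09 and mesothelium markers -1.25. The 4 epididymis genes were higher, Gpx5 16.4-fold and Lcn8, Lcn9 and Adam7 at least 21.6-fold, 13.9-fold and 10.4-fold. The 3 testis genes were lower, Prm1 3.76-fold, Prm2 3.11-fold and Tnp1 at least 6.02-fold. Whether such tissues were in the pools, and their part in the values of the ligands and receptors, was not tested.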

How the data were processed

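The deposited values are log2 signals, 1 per probe set and array, which the authors made with RMA, per the submitters' processing notes. The sources used here do not give its version or annotation. That the scale is log2 follows from the range, 2.06 to 14.21 on the high fat diet array and 2.04 to 14.28 on the normal diet array. Sorted, both columns differed by at most 0.14, so their distributions had been made nearly equal, which removes a change in total RNA. RMA also compresses differences of dim probe sets.

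Names came from the platform annotation at GEO, an older table. All 29 Entrez IDs of the members were found in RefSeq (GRCm38.p6), with 0 symbols changed. Of the probe sets, 34958 had 1 symbol, 932 several and 9160 other than controls none. The 64 control probe sets were left out, as were probe sets with several symbols.

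Where 1 array was below background, the ratio was computed against the background limit and written "at least". No test, SD or SE between diets was possible. Ligands and receptors with a signal above background on at least 1 array are given with their values. The text names from each pathway list the 3 highest and 3 lowest genes above the floor and each gene past 2-fold. Members and lists were chosen with earlier results of these data known. Only the step that calls 2-fold genes was checked on simulated data, with a shift well above the cut. The other steps were not simulated. Python 3.11.15, pandas 2.3.3 and NumPy 2.4.6 were used. The alternatives tried were the floor, the choice of probe set, the background limit, centring and the fold.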

Additional observations from a re-analysis of the deposited data

How the results depend on the processing

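The number of arrays and the nearness of many genes to background limit these results. No paired analysis was possible because each diet has 1 array. The median of the ligands, -0.31, turned to 0.14 without the floor (8 genes) and to 0.15 when a gene was given by the median of its probe sets (2 genes), and no ligand was left with the floor at the 75th percentile. The gap of ligands to receptors was then -0.28 and -0.35, and -1.001 with each probe set as its own value. The receptor median was 0.77 over 5 genes with the floor at the 75th percentile and 0.73 over 15 values with each probe set on its own. The number at least 2-fold higher was 3 of 28 without the floor, where 2.63% of all genes were. Of these 3, Tnfrsf10b was near background on both arrays and Tnfrsf23 was bounded at 1.84-fold. With the floor at background the number was 2 of 19. Beside it, 354 of 12357 genes above background on both arrays and 114 of 879 above it on 1 array were. The number was 2 of 13 without _s_at, _x_at and _a_at probe sets and 3 of 19 with each probe set on its own. For these 2 settings no share over all genes is given. At 1.5-fold the number was 5 of 14, against 8.20% of all genes above the floor. The median of the shedding genes turned to -0.0095 after centring on the median difference of 0.04. The receptor median was above 0 under each setting tried. Counting each probe set and leaving out Tnfrsf22 and Tnfrsf23 (receptor median 0.32) were chosen after seeing the data, as were the limit to pairs above background on both arrays and the marker medians with raised signals.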

Other observations

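The brighter probe set of the non-coding Tnfsf13os had 4.82 on the high fat diet array and 4.43 on the normal diet array, and the other had 4.27 with the high fat diet and 4.32 with the normal diet, all below the background limit.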
